A study of Mus musculus with 6 samples.

Results

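A set of 10 genes used as markers of inhibitory interneurons were followed through 6 coronal mouse brain sections: Gad1, Gad2, Pvalb, Calb1, Calb2, Sst, Vip, Npy, Cck and Reln. They were taken by symbol from the gene list of the files, where all 10 were found among 32285 genes. Their levels were described in the whole section, in the isocortex, in its layers and in other regions, at 3 ages. All mice were C57BL/6J males, an inbred strain, and the labels name no altered gene and no agent given in any group. Young mice were 6 months old, middle mice 18 months and old mice 21 months, with 2 sections and 2 mice per age. The assay, 10x Genomics Visium, captures RNA from a tissue section placed over an array of spots with known barcodes, and each captured transcript is counted once as a unique molecular identifier (UMI). A spot is a small area that can hold several cells, so a value belongs to a mixture of cells and not to an interneuron. Sections middle 2 and old 2 were on slide 2 and the other 4 on slide 1, so slide 2 had no young section.

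Interneurons are neurons with mostly local axons that release GABA, which the enzymes encoded by Gad1 (GAD67) and Gad2 (GAD65) make from glutamate. In the cortex they are grouped by what else they make: the calcium-binding protein parvalbumin (Pvalb) in fast-spiking basket and chandelier cells, somatostatin (Sst) in cells that target dendrites, and vasoactive intestinal peptide (Vip) in cells that mostly inhibit other interneurons, with neuropeptide Y (Npy), cholecystokinin (Cck), calretinin (Calb2), calbindin (Calb1) and reelin (Reln) marking further or overlapping groups. None of these genes is exclusive to interneurons: cortical pyramidal cells make Cck and, in upper layers, Calb1, thalamic neurons make Calb1, Calb2 and Cck, and GABAergic projection neurons of the striatum and reticular thalamus make Gad1 and Gad2.

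After spots under 500 UMIs were left out, 16741 spots remained, 2573 to 2973 per section, with totals of 60938938 to 77557934 UMIs. The median spot held 20370.0 to 30093 UMIs and was shallowest in the 2 old sections. Middle 2 and old 2, both on slide 2, were the most alike of all pairs (chi-square per degree of freedom 8.08 over genes), against 24 to 45.6 within an age. Sections shared 2082 to 2825 spot barcodes, as the slides use 1 common set of positions. Spots were clustered without the members, and 18 of 20 clusters were named from marker genes. A cluster with markers of both midline thalamus (5) and thalamic relay nuclei (6) was named after both and is called midline thalamus for short below. Young 1 had no spot in hippocampal CA1 and 67 in the dentate gyrus and CA3 cluster, against 155 to 243 in the others. The cluster named meninges from its markers also held neuronal genes at cortical levels (Cck at 1032 ± 60.4 CPM), and 2 clusters stayed without a name, one led by Igfn1, Cdhr1 and Lmo3 and the other by Cyp26b1, C1ql3 and Kcng1.

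The stretch of 250 bases before the start of transcription is shown for 5 members whose levels ran together over regions, namely Gad1 with Gad2 (r = 0.91 over 16 regions), Sst with Gad1 (r = 0.91) and Vip with Npy (r = 0.86). RefSeq (GRCm38.p6) held such an entry for 8 of the 10 members, and Calb1 and Calb2 were not among them. The windows lie at chr2:70561879-70562128, plus strand (Gad1), chr2:22622077-22622326, plus strand (Gad2), chr16:23890845-23891094, minus strand (Sst), chr10:5638968-5639217, plus strand (Vip) and chr6:49822460-49822709, plus strand (Npy). The windows of Gad1, Gad2 and Sst overlap the annotated gene in whole or in part, as its first base lies upstream of the RefSeq start. Capitals mark matches on either strand to the cAMP response element TGACGTCA or its shorter form TGACGT, to the TATA box motif TATAAA, to the motif CCAAT or to the GC box motif GGGCGG.
Gad1: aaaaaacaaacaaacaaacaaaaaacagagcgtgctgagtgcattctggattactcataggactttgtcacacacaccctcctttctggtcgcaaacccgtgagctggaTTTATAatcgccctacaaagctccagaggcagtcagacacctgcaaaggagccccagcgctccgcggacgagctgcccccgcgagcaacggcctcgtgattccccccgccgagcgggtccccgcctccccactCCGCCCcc
Gad2: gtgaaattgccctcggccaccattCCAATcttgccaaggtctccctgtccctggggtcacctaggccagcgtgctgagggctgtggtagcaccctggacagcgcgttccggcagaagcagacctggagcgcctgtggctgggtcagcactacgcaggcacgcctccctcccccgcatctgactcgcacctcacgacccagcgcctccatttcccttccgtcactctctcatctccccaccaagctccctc
Sst: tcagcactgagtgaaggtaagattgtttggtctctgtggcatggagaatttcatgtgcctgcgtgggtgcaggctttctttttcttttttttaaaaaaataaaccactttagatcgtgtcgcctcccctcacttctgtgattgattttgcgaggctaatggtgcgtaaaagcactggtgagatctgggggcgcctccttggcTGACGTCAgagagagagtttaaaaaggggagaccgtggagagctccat
Vip: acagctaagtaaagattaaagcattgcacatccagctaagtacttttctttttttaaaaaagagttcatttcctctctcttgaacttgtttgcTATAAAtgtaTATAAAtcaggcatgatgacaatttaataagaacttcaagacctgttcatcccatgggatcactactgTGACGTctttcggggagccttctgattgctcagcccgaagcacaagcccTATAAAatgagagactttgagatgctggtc
Npy: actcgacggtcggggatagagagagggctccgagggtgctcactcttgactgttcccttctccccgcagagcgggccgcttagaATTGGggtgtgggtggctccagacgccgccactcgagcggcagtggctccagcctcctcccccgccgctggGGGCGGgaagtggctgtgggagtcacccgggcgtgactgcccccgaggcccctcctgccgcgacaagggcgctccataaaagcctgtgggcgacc

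TGACGTCA was found upstream of Sst and of no other member with an entry, 48 to 41 bases before the start, and in 1.55% of all 32851 windows. The shorter TGACGT, which overlaps it, was also found upstream of Vip (79 to 74 bases before the start) and in 6.47% of windows. TATAAA occurred upstream of Gad1 and Vip and in 12.4% of windows, and CCAAT upstream of Gad2 and Npy and in 33.8%. GGGCGG occurred upstream of Gad1, Npy and Reln and in 32.7% of windows, with 6 copies upstream of Reln. TAATTA, the core that homeodomain factors bind, was in 4.84% of windows and in none of the members' windows. Gad1 and Gad2 shared none of these motifs. A match describes letters only and is not a tested site.

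Levels are given as CPM, the UMIs of a gene per 1000000 UMIs of the same spots, as mean ± SD over n = 6 sections unless another n is given. Regions are described without a test because they were found in the same spots. Fewer cells of a type and less RNA per cell cannot be told apart in such values. Gad1 (ENSMUSG00000070880, chr2:70553072-70602014, plus strand) was highest in the region of subcortical GABAergic neurons, at 1223 ± 150.4 CPM, above every other region in 6 of 6 sections and without overlap. It came next in the amygdala and hypothalamus cluster (427 ± 44.4 CPM) and in striatum (414 ± 12.9 CPM), whose ranges overlapped. The lowest level was in habenula (14.6 ± 4.11 CPM, n = 5). Gad2 (ENSMUSG00000026787, chr2:22622205-22693874, plus strand) had the same leading regions, with 471 ± 36.3 CPM in the subcortical GABAergic region, 372 ± 47.9 CPM in amygdala and hypothalamus and 17.8 CPM at its lowest in midline thalamus. The first 2 of these ranges overlapped, although the order held in 6 of 6 sections. Over the 16 named regions the mean log2 levels of the 2 genes had r = 0.91, as a description over regions that share libraries. The genes whose pattern was most like that of Gad1 were Slc32a1 (r = 0.96), Lhx6 (r = 0.91) and Gad2 (r = 0.91), and for Gad2 Gm14204 (r = 0.96), Slc32a1 (r = 0.95) and Dlx6 (r = 0.94). Slc32a1 carries GABA into synaptic vesicles, and Lhx6 and Dlx6 are transcription factors of the GABAergic lineage.

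The subcortical GABAergic region joined 2 clusters that differed widely. The cluster led by Six3 and Spp1, markers of the reticular thalamus, held Gad1 at 3125 ± 305 CPM, Gad2 at 886 ± 58.7 CPM and Pvalb at 4502 ± 435 CPM. The cluster led by Slc5a7, Lhx8 and Pmch, genes of cholinergic and lateral hypothalamic neurons, held Gad1 at 494 ± 100.3 CPM, Gad2 at 309 ± 32.3 CPM and Pvalb at 413 ± 164 CPM. Sst was also higher in the first, at 1028 ± 172 CPM against 276 ± 92.1 CPM. Calb2 went the other way, at 10.4 CPM against 157 CPM. None of these ranges overlapped. With coarser or finer clusters the name covered the reticular cluster more narrowly, and the Pvalb mean was 4486 or 3452 CPM.

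**Figure D1:**
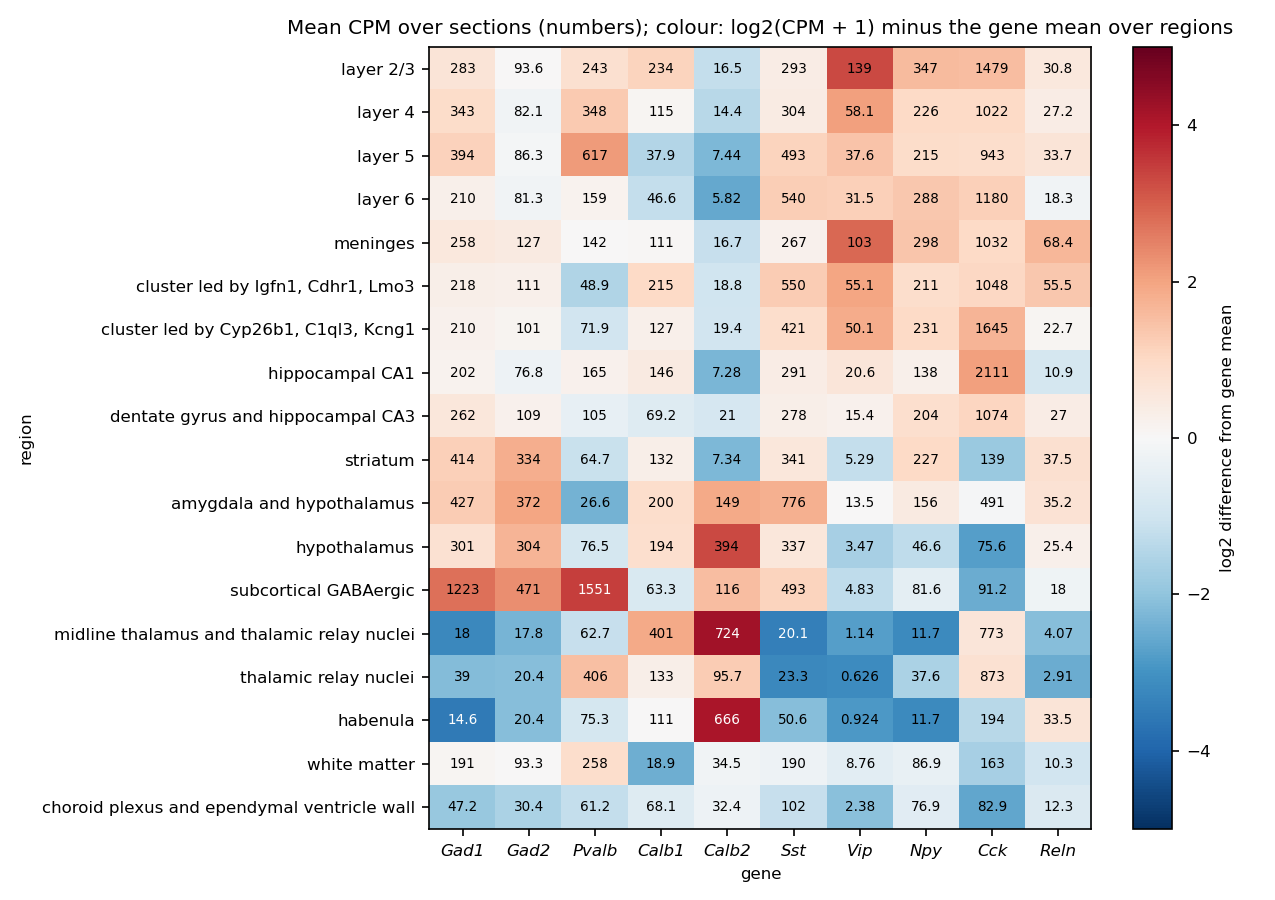
Mean level of each gene (columns) in each region (rows). Numbers are mean CPM over the sections with at least 20 spots of the region (6, or 5 for hippocampal CA1 and habenula), and colour is log2(CPM + 1) minus the mean of the gene over the 18 regions. Gad1, Gad2 and Pvalb peak in the subcortical GABAergic region, Vip and Npy in layer 2/3, Calb1 and Calb2 in the joint cluster of midline thalamus and thalamic relay nuclei, Cck in hippocampal CA1 and Reln in meninges.

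Pvalb (ENSMUSG00000005716, chr15:78191114-78206400, minus strand) was highest in the subcortical GABAergic region (1551 ± 331 CPM), without overlap with the next, layer 5 (617 ± 90.7 CPM). It was lowest in the amygdala and hypothalamus cluster (26.6 ± 12.6 CPM). In hypothalamus young 1 stood apart, with 214 CPM against 43.1 to 56.6 CPM in the other 5 sections. The most like genes over regions were Esrrg (r = 0.85), Kcnab3 (r = 0.81) and Pus1 (r = 0.79). Calb1 (ENSMUSG00000028222, chr4:15881264-15908064, plus strand) was highest in midline thalamus (401 ± 50.9 CPM) and next in layer 2/3 (234 ± 26.0 CPM), and these ranges did not overlap. Its lowest level was in white matter (18.9 ± 4.30 CPM). Its nearest genes were Arid1a (r = 0.83), Nt5c2 (r = 0.83) and Jag2 (r = 0.82). Calb2 (ENSMUSG00000003657, chr8:110137502-110168210, minus strand) was highest in midline thalamus, where sections ran from 316 to 1095 CPM, and next in habenula (666 ± 78.8 CPM, n = 5). The 2 regions overlapped, and midline thalamus was above habenula in 4 of 5 sections. Calb2 was lowest in layer 6 (5.82 ± 0.662 CPM), and its nearest genes were Arhgap24 (r = 0.96), Pcbd1 (r = 0.94) and Insyn2b (r = 0.92).

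Sst (ENSMUSG00000004366, chr16:23889573-23890958, minus strand) was highest in the amygdala and hypothalamus cluster (776 ± 245 CPM), where it led the next region in 6 of 6 sections although the ranges overlapped. The next levels were 549.9 ± 52.5 CPM in the cluster led by Igfn1 and 539.8 ± 51.0 CPM in layer 6, and these did not differ beyond their spread. The lowest was midline thalamus (20.1 ± 4.24 CPM). Genes of similar pattern included Lhx6 (r = 0.93) and Gad1 (r = 0.91). Vip (ENSMUSG00000019772, chr10:5639218-5647617, plus strand) was highest in layer 2/3 (139 ± 20.1 CPM) and next in meninges (103 ± 27.8 CPM), with the same order in 6 of 6 sections and overlapping ranges. In thalamic relay nuclei Vip was at 0 to 1.45 CPM, the lowest of its regions. Its nearest genes were Tbr1 (r = 0.94), Lamp5 (r = 0.93) and Epop (r = 0.93). Npy (ENSMUSG00000029819, chr6:49822710-49829507, plus strand) was also highest in layer 2/3 (347 ± 66.6 CPM) and next in meninges (298 ± 29.9 CPM), which did not differ beyond their spread. Its lowest level was in habenula (11.7 ± 4.39 CPM, n = 5), and genes of similar pattern included Kcnv1 (r = 0.94) and Kcnj4 (r = 0.92).

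Cck (ENSMUSG00000032532, chr9:121489824-121495694, minus strand) was highest in hippocampal CA1 (2111 ± 228 CPM, n = 5), next in the cluster led by Cyp26b1 (1645 ± 175 CPM) and lowest in hypothalamus (75.6 ± 18.7 CPM). The first 2 ranges did not overlap. Its nearest genes were Spata2 (r = 0.94), Dgkz (r = 0.93) and Hivep3 (r = 0.92). Reln (ENSMUSG00000042453, chr5:21884454-22344702, minus strand), which encodes a secreted glycoprotein made in the outermost layer of the cortex and by some interneurons, was highest in meninges (68.4 ± 7.80 CPM). With finer clusters a separate cluster with markers of layer 1 and the glia limitans had 74.8 ± 8.92 CPM. The cluster led by Igfn1 came next (55.5 ± 6.78 CPM), and thalamic relay nuclei were lowest (2.91 ± 1.10 CPM). Its nearest genes were Dynlt1a (r = 0.85), Erbb4 (r = 0.85) and Gpr26 (r = 0.83). Erbb4 encodes a neuregulin receptor of interneurons.

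Within the isocortex the members fell into different layer profiles. Pvalb had mean CPM of 243 in layer 2/3, 348 in layer 4, 617 in layer 5 and 159 in layer 6, with layer 5 highest in 6 of 6 sections and 3.07 to 4.56 times layer 6. Gad1 had the same order, with 283 in layer 2/3, 343 in layer 4, 394 in layer 5 and 210.2 in layer 6, and a ratio of layer 5 to layer 6 of 1.70 to 2.05. Gad2 varied least over layers, with 93.6 in layer 2/3, 82.1 in layer 4, 86.3 in layer 5 and 81.3 in layer 6, and layer 2/3 was highest in 6 of 6 sections. Sst had 293 in layer 2/3, 304 in layer 4, 493 in layer 5 and 539.8 in layer 6, and layer 6 was highest in 5 of 6 sections, young 2 being highest in layer 5. Vip had 139 in layer 2/3, 58.1 in layer 4, 37.6 in layer 5 and 31.5 in layer 6, and layer 2/3 was highest in 6 of 6 sections at 3.84 to 5.32 times layer 6. Calb1 had 234 in layer 2/3, 115 in layer 4, 37.9 in layer 5 and 46.6 in layer 6, again with layer 2/3 highest in 6 of 6 sections and 5.26 to 6.73 times layer 5. Calb2 was sparse, with 16.5 in layer 2/3, 14.4 in layer 4, 7.44 in layer 5 and 5.82 in layer 6, and layer 2/3 was highest in 5 of 6 sections. These Calb2 levels lay below the 34.5 CPM of white matter.

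Npy had 347 in layer 2/3, 226 in layer 4, 215 in layer 5 and 288 in layer 6, and layer 2/3 was highest in 5 of 6 sections. In old 1 its level in layer 2/3 was 225 CPM, below layer 6 of the same section. Cck had 1479 in layer 2/3, 1022 in layer 4, 943 in layer 5 and 1179.6 in layer 6, and layer 2/3 was highest in 6 of 6 sections. Reln had 30.8 in layer 2/3, 27.2 in layer 4, 33.7 in layer 5 and 18.3 in layer 6, and layer 5 was highest in 4 of 6. Layer 6 joined 2 clusters between which Pvalb did not overlap. It had 215 ± 28.8 CPM in the cluster led by Trbc2, Ighm and Myl4 and 35.6 ± 7.53 CPM in the cluster led by the subplate genes Ccn2 and Cplx3. Sst overlapped between them, at 521 ± 90.9 CPM and 586 ± 60.4 CPM.

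**Figure D2:**
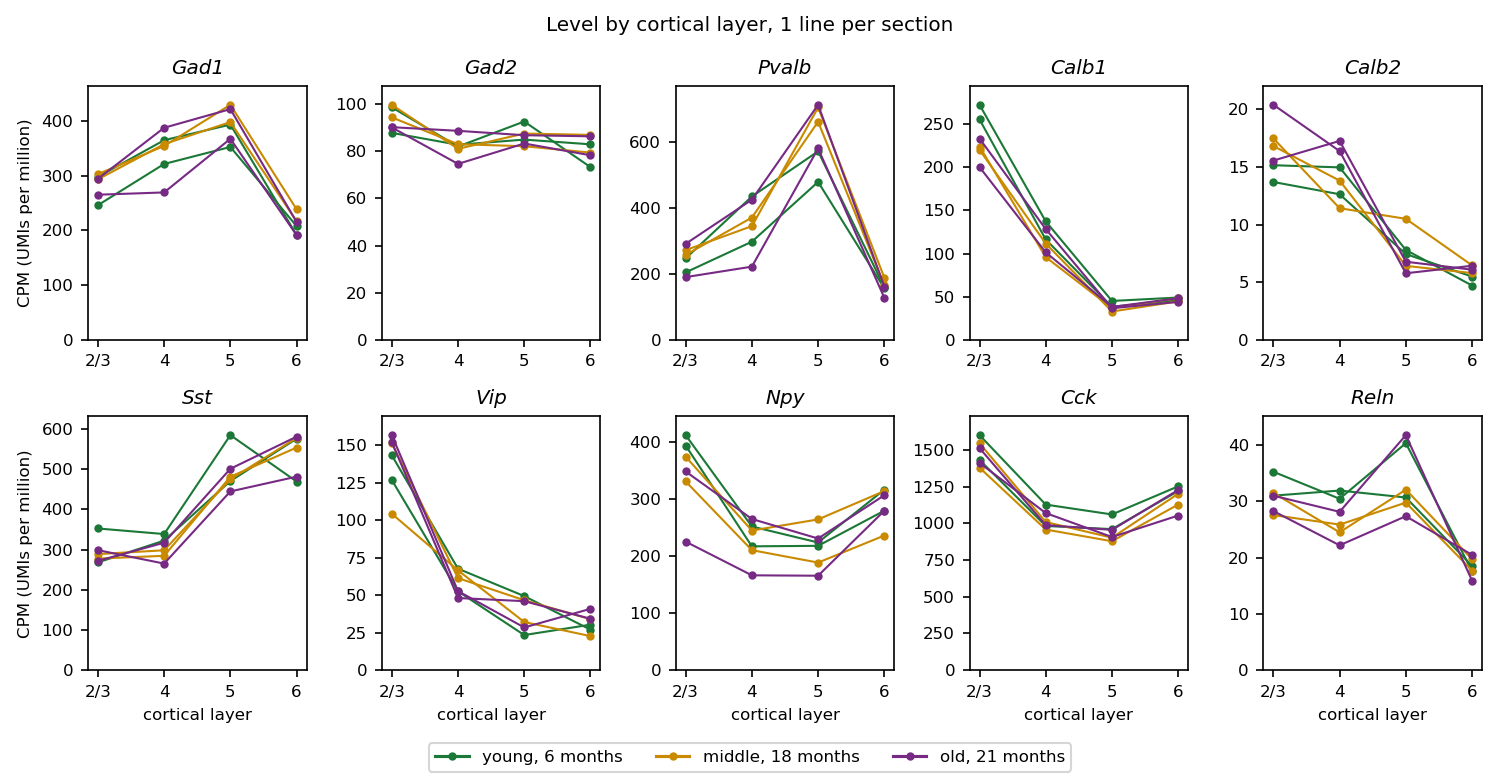
Level (CPM, vertical axis from 0) of each gene in cortical layers 2/3, 4, 5 and 6, with 1 line per section coloured by age. Pvalb and Gad1 peak in layer 5 in all 6 sections, Vip, Calb1 and Cck in layer 2/3 in all 6, and lines of different ages cross or run together in each panel.

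The question of the study's design, how the brain changes with age, was asked of each member with edgeR on UMI sums per section, fitted over all genes with age as the only term. The section is the replicate, and the labels do not tie sections to mice, so p-values measure the spread between these 6 sections. In the whole section edgeR called 0 of 10 members between old and young, while 0.164% of 17673 genes were called, and 2 members had an unadjusted p under 0.05. It called 0 of 10 between middle and young (background 0.0679%, 1 member at unadjusted p under 0.05) and 0 of 10 between old and middle (background 0%, 0 members at unadjusted p under 0.05). In the isocortex edgeR likewise called 0 of 10 members between old and young (background 0.162%, 1 at unadjusted p under 0.05), between middle and young (background 0.208%, 1) and between old and middle (background 0%, 0). DESeq2 called 0 members in each of these comparisons. The comparisons share sections, so they are not independent of each other. A p above the threshold with 2 sections per age does not show that the ages were alike. Below, some members have both old sections above or below both young ones in the whole section or isocortex. The share of all genes with such a separation was not counted there.

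**Figure D3:**
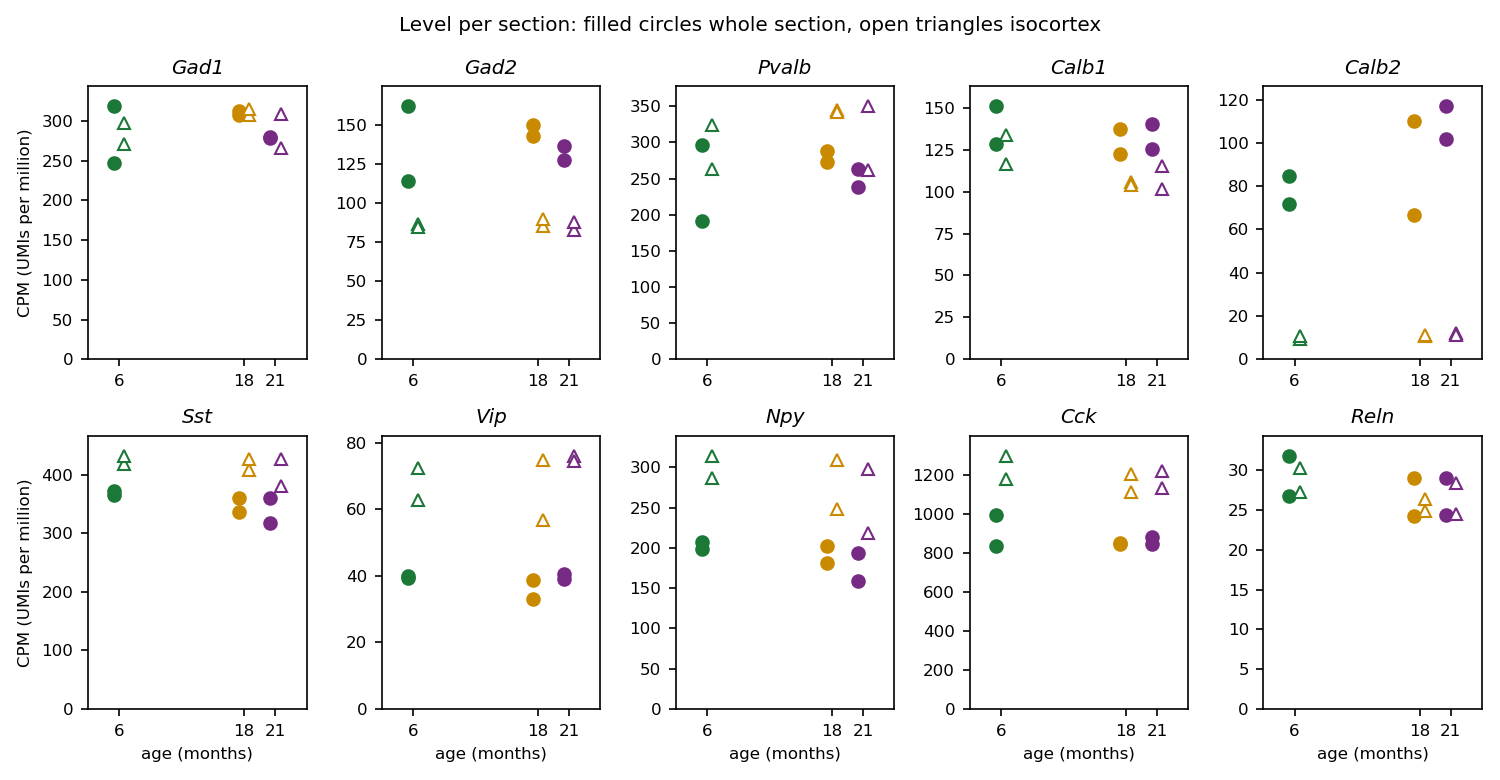
Level (CPM, vertical axis from 0) of each gene against age in months, with 1 symbol per section. Filled circles are whole sections and open triangles isocortex, shifted sideways for legibility, and the 2 sections of an age often lie as far apart as the ages.

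Of the enzymes of GABA synthesis, Gad1 stood in the whole section at 319 and 247 CPM in the young, 307 and 312 CPM in the middle and 279 and 279 CPM in the old sections. The young sections lay at the top and bottom of the range and enclosed all others. Gad1 had a log2 difference of -0.073 (SE 0.13, edgeR adjusted p = 0.854) between old and young. In the isocortex it had 298 and 271 CPM in the young, 307 and 315 CPM in the middle and 266 and 308 CPM in the old sections, with overlapping ages and a log2 difference of -0.023 (SE 0.08, edgeR adjusted p = 0.950). Gad2 had 162 and 114 CPM in the young, 143 and 149.8 CPM in the middle and 137 and 128 CPM in the old sections in the whole section, again with the 2 young sections at both ends, and a log2 difference of -0.12 (SE 0.18, edgeR adjusted p = 0.832). In the isocortex Gad2 ranged little, with 86.3 and 84.9 CPM in the young, 85.2 and 89.7 CPM in the middle and 82.5 and 88.1 CPM in the old sections, with a log2 difference of -0.042 (SE 0.06, edgeR adjusted p = 0.849). Without young 1 the whole-section differences of Gad1 and Gad2 were 0.15 and 0.19, so their direction rests on that section.

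Of the calcium-binding proteins, Pvalb had 297 and 192 CPM in the young, 288 and 272 CPM in the middle and 238 and 263 CPM in the old sections in the whole section. The young sections again enclosed all others, with a log2 difference of -0.019 (SE 0.23, edgeR adjusted p = 0.987) between old and young, which was 0.36 without young 1. In the isocortex Pvalb had 325 and 264 CPM in the young, 345 and 342 CPM in the middle and 262 and 350.1 CPM in the old sections, and the ages overlapped, with a log2 difference of 0.019 (SE 0.18, edgeR adjusted p = 0.985). Calb1 had 128 and 151 CPM in the young, 122 and 138 CPM in the middle and 140.2 and 126 CPM in the old sections in the whole section, with a log2 difference of -0.12 (SE 0.082, edgeR adjusted p = 0.571). In the isocortex Calb1 had 117 and 134 CPM in the young, 105 and 104 CPM in the middle and 115 and 102 CPM in the old sections. Both young sections lay above both middle and both old sections there, and young 1 exceeded old 1 by little. The isocortex values gave a log2 difference of -0.24 (SE 0.072, edgeR adjusted p = 0.262) for old and a log2 difference of -0.27 (SE 0.072, edgeR adjusted p = 0.238) for middle, both relative to young, neither past the threshold. Calb2 had 71.9 and 84.4 CPM in the young, 66.8 and 110.0 CPM in the middle and 102 and 117 CPM in the old sections in the whole section, with a log2 difference of 0.43 (SE 0.24, edgeR adjusted p = 0.528), and both old sections lay above both young ones. That difference was 0.21 at its lowest over the alternative settings. Midline thalamus held the largest mean share of Calb2 UMIs among the regions. Within it Calb2 means, here with TMM factors, were 592 CPM in young and 873 CPM in old, not past the threshold. Among regions with at least 600 Calb2 UMIs, the old sections lay above the young in 3, midline thalamus included, and overlapped in 4. Over all genes, 36.5% of such combinations were separated in either direction. The part of the extent of midline thalamus and of these levels in the whole-section difference was not tested. In the isocortex Calb2 had 9.57 and 10.5 CPM in the young, 10.6 and 11.3 CPM in the middle and 12.3 and 11 CPM in the old sections, with a log2 difference of 0.18 (SE 0.11, edgeR adjusted p = 0.565), where the old sections also lay above the young.

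Of the peptides, Sst had 372 and 365 CPM in the young, 336 and 359.9 CPM in the middle and 317 and 360.4 CPM in the old sections in the whole section. Both old sections lay below both young ones, with a log2 difference of -0.17 (SE 0.073, edgeR adjusted p = 0.387). In the isocortex Sst had 418 and 432 CPM in the young, 408 and 427 CPM in the middle and 379.7 and 426 CPM in the old sections, with overlapping ages and a log2 difference of -0.11 (SE 0.068, edgeR adjusted p = 0.586). Vip had 39.9 and 39.4 CPM in the young, 33.1 and 38.9 CPM in the middle and 39.0 and 40.7 CPM in the old sections in the whole section and a log2 difference of -0.045 (SE 0.068, edgeR adjusted p = 0.827). Its isocortex values were 72.4 and 62.8 CPM in the young, 56.7 and 74.7 CPM in the middle and 76.0 and 74.5 CPM in the old sections, with middle 1 lowest and a log2 difference of 0.12 (SE 0.12, edgeR adjusted p = 0.779). Npy had 199 and 207 CPM in the young, 181 and 203 CPM in the middle and 159 and 194 CPM in the old sections, and both old sections lay below both young ones, with a log2 difference of -0.25 (SE 0.094, edgeR adjusted p = 0.336). In the isocortex it had 286 and 314 CPM in the young, 248 and 309 CPM in the middle and 218 and 297 CPM in the old sections, where old 1 stood lowest and old 2 between the young sections, with a log2 difference of -0.25 (SE 0.17, edgeR adjusted p = 0.667). With slide as a term that difference was -0.45 (edgeR adjusted p = 0.0433).

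Cck had 835 and 991 CPM in the young, 845 and 849.6 CPM in the middle and 846 and 880.1 CPM in the old sections in the whole section and a log2 difference of -0.13 (SE 0.073, edgeR adjusted p = 0.493), with overlapping ages. In the isocortex Cck had 1178 and 1295 CPM in the young, 1113 and 1205 CPM in the middle and 1134 and 1219.8 CPM in the old sections and a log2 difference of -0.11 (SE 0.071, edgeR adjusted p = 0.629). Reln had 31.7 and 26.7 CPM in the young, 24.3 and 29.0 CPM in the middle and 29.0 and 24.3 CPM in the old sections in the whole section, with overlapping ages and a log2 difference of -0.18 (SE 0.13, edgeR adjusted p = 0.607). In the isocortex it had 27.2 and 30.2 CPM in the young, 24.9 and 26.4 CPM in the middle and 28.4 and 24.4 CPM in the old sections and a log2 difference of -0.15 (SE 0.085, edgeR adjusted p = 0.549). With age in months as a number, edgeR called 0 of 10 members in the whole section (background 0.724%, 2 at unadjusted p under 0.05) and 0 of 10 in the isocortex (background 0.695%, 2), and DESeq2 also called 0 in both. The nearest was Calb1 in the isocortex, with a slope of -0.22 per year on the log2 scale (SE 0.053, edgeR adjusted p = 0.0866). The change between old and young was compared between isocortex and all other spots with an interaction term, and no member passed the threshold (0 of 10 called by edgeR or DESeq2, background 0.0236%, 1 at unadjusted p under 0.05).

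Of 16 single regions with at least 20 spots in every section, edgeR called 2 of 156 gene and region combinations between old and young (background 0.252%), 2 of 156 between middle and young (background 0.307%) and 1 of 156 between old and middle (background 0.0266%). Each region was adjusted on its own. All 5 calls concerned Pvalb or Gad2. Among combinations with at least 600 UMIs, both old sections lay above both young ones in 11 of 126 and below them in 15, so 20.6% were separated, against 36.5% of 98013 over all genes. In thalamic relay nuclei, where excitatory neurons project to the cortex, Pvalb was higher in the old sections, with 299.8 and 297 CPM in the young, 414 and 409.6 CPM in the middle and 497 and 520.0 CPM in the old sections. The 3 ages did not overlap, and the old sections had a log2 difference of 0.70 (SE 0.092, edgeR adjusted p = 0.0200) relative to young (0.116% of genes called there). The middle sections had a log2 difference of 0.43 (SE 0.092, edgeR adjusted p = 0.344), which did not pass (0.0543% called). On slide 1 alone old 1 exceeded both young sections by the values above, and slide 2 held no young section. The call was lost with slide as a term (log2 difference 0.69, edgeR adjusted p = 0.289), with coarser clusters (edgeR adjusted p = 0.844) and without middle 1, middle 2, old 1 or old 2 (edgeR adjusted p = 0.176, 0.172, 0.256 and 0.622), while the difference stayed between 0.63 and 0.77.

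Other markers in the same spots were read beside this call. Gad1 in thalamic relay nuclei had 44.4 and 29.0 CPM in the young, 32.8 and 36.5 CPM in the middle and 47.1 and 44.1 CPM in the old sections, with the young range reaching above old 2. Gad2 had 21.9 and 15.7 CPM in the young, 17.7 and 18.9 CPM in the middle and 24.2 and 23.8 CPM in the old sections, and there both old sections lay above both young ones. Slc32a1 had 15.3 and 11.3 CPM in the young, 15.6 and 14.8 CPM in the middle and 21.2 and 14.3 CPM in the old sections and a log2 difference of 0.37 (SE 0.24, edgeR adjusted p = 0.857). Of the reticular markers, Six3 had 11.4 and 5.24 CPM in the young, 6.25 and 6.70 CPM in the middle and 9.63 and 8.49 CPM in the old sections and Spp1 had 7.16 and 8.73 CPM in the young, 9.07 and 13.0 CPM in the middle and 18.4 and 15.1 CPM in the old sections, and for Spp1 both old sections lay above both young ones. Syt2, a synaptotagmin of fast-spiking terminals, had 16.9 and 16.6 CPM in the young, 26.9 and 21.3 CPM in the middle and 33.0 and 32.9 CPM in the old sections and a log2 difference of 0.91 (SE 0.16, edgeR adjusted p = 0.104), and was singled out after its values were seen. The relay markers Prkcd and Tnnt1 were low in young 1, at 652 and 47.9 CPM, against 1885 and 386 CPM in young 2, while Pvalb in these sections differed little. The part of these markers in the Pvalb difference was not tested.

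The cluster led by Cyp26b1, C1ql3 and Kcng1 gave the other Pvalb calls. It held 60 (middle 2) to 167 (young 2) spots per section. Coarser clusters had instead a cluster led by Cyp26b1, Lypd1 and Lmo3 (1176 spots). Finer clusters had a cluster led by Cyp26b1, C1ql3 and Lypd1 (734 spots). The calls were therefore not tried on the same cluster there. In the cluster led by Cyp26b1, C1ql3 and Kcng1, Pvalb had 57.5 and 47.8 CPM in the young, 85.4 and 84.2 CPM in the middle and 79.2 and 77.5 CPM in the old sections, so both young sections lay below the other 4. It rose in middle relative to young, with a log2 difference of 0.72 (SE 0.12, edgeR adjusted p = 0.00637) (0.0578% of genes called), and in old relative to young, with a log2 difference of 0.58 (SE 0.12, edgeR adjusted p = 0.0344) (0.0743% called). Gad1 in the same spots had 190.2 and 242 CPM in the young, 214 and 205 CPM in the middle and 212 and 196 CPM in the old sections, with overlapping ages. Gad2 had 99.2 and 111 CPM in the young, 103 and 109 CPM in the middle and 86.5 and 98.5 CPM in the old sections, with both old sections below both young ones. Vip had 66.2 and 66.9 CPM in the young, 20.8 and 33.7 CPM in the middle and 38.5 and 74.6 CPM in the old sections. Both middle sections thus lay below both young ones. Vip was not called without further terms. With slide as a term it was called in middle relative to young, at a log2 difference of -1.77 (edgeR adjusted p = 2.0e-07). The glutamatergic markers, summed, ran from 2012 to 2209 CPM. The part of these genes in the Pvalb result was not tested. Within slide 1, middle 1 and old 1 lay above both young sections, and with slide as a term the middle difference was 0.73 (edgeR adjusted p = 0.0212). The old call was lost with DESeq2 (adjusted p = 1.00), with sums thinned to equal depth (log2 difference 0.45), with slide as a term (edgeR adjusted p = 0.164) and without middle 1, old 1, old 2 or young 2 (edgeR adjusted p = 0.0550, 0.376, 0.379 and 0.200). The middle call was lost with DESeq2 (adjusted p = 0.452), with thinned sums (edgeR adjusted p = 0.110) and without middle 1, middle 2 or young 2 (edgeR adjusted p = 0.219, 0.0515 and 0.0890).

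In white matter, Gad2 had 82.6 and 70.5 CPM in the young, 109 and 134 CPM in the middle and 81.4 and 82.3 CPM in the old sections. Both middle sections lay above the other 4, on slide 1 as on slide 2. Gad2 rose in middle relative to young, with a log2 difference of 0.62 (SE 0.12, edgeR adjusted p = 0.00364) (3.46% of genes called there), and was lower in old relative to middle, with a log2 difference of -0.59 (SE 0.12, edgeR adjusted p = 0.0146) (0.399% called). Gad1 had 158 and 124 CPM in the young, 207 and 309 CPM in the middle and 187 and 161 CPM in the old sections and a log2 difference of 0.82 (SE 0.21, edgeR adjusted p = 0.110) for middle relative to young, which did not pass. Some other neuronal genes moved with Gad2 in middle relative to young. Slc17a6, the vesicular glutamate transporter of thalamic neurons, had a log2 difference of 0.62 (SE 0.17, edgeR adjusted p = 0.0404). Kcnc1, a potassium channel subunit of fast-spiking cells, had a log2 difference of 0.94 (SE 0.18, edgeR adjusted p = 0.00932). Slc17a7, the transporter of cortical excitatory neurons, overlapped, with 91.9 and 99.8 CPM in the young, 109 and 89.6 CPM in the middle and 100.1 and 99.9 CPM in the old sections. The glutamatergic markers summed to 231 and 262 CPM in the young, 299 and 269 CPM in the middle and 265 and 260 CPM in the old sections. Snap25, a synaptic gene of all neurons, had 435 and 384 CPM in the young, 547 and 764 CPM in the middle and 484 and 509.8 CPM in the old sections. The 6 oligodendrocyte markers summed to 44646 and 49353 CPM in the young, 41673 and 35165 CPM in the middle and 43747 and 41041 CPM in the old sections, lowest in middle 2, and 3 of the 6 (Mag, Cnp and Mog) fell in middle relative to young. The part of these neuronal and oligodendrocyte markers in the Gad2 result was not tested. With slide as a term the differences were 0.55 (edgeR adjusted p = 0.0254) and -0.59 (edgeR adjusted p = 0.00614). The first call was lost without middle 2 or young 2 (edgeR adjusted p = 0.106 and 0.0536), and the second with DESeq2 (adjusted p = 0.223), with finer clusters (edgeR adjusted p = 0.0679) and without middle 2, old 1 or old 2 (edgeR adjusted p = 0.268, 0.109 and 0.340).

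**Figure D4:**
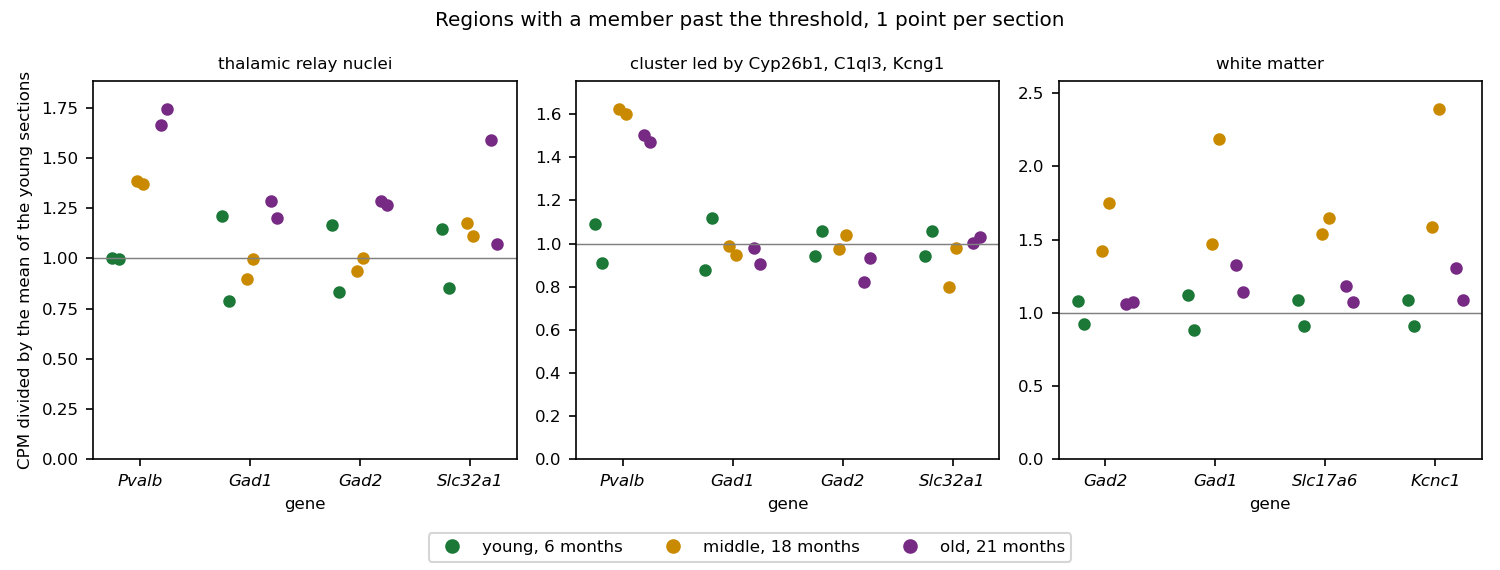
CPM of selected genes divided by the mean of the young sections (vertical axis from 0, grey line at 1), with 1 point per section coloured by age, in the 3 regions where a member passed the threshold. Pvalb lies above the young sections in thalamic relay nuclei and in the cluster led by Cyp26b1 while Gad1 overlaps between young and old in both, and in white matter the middle sections are highest for Gad2, Gad1, Slc17a6 and Kcnc1 alike.

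How the transcripts spread over single spots was described in the isocortex after each spot was thinned to 10000 UMIs, which left out 21 of 4084 spots. Pvalb had a UMI in 75.0% ± 5.51 of isocortex spots at equal depth (91.0% with all UMIs), against 49.8% ± 14.6 in white matter and 39.8% ± 8.88 in choroid plexus and ventricle wall. For Sst the share was 78.4% ± 2.32 of isocortex spots at equal depth (96.1% with all UMIs), against 44.2% ± 7.62 in white matter and 33.2% ± 6.04 in choroid plexus and ventricle wall. For Vip it was 27.7% ± 3.18 of isocortex spots at equal depth (47.7% with all UMIs), against 3.89% ± 2.43 in white matter and 3.44% ± 4.08 in choroid plexus and ventricle wall. Npy had a UMI in 70.7% ± 3.59 of isocortex spots at equal depth (93.5% with all UMIs), against 26.5% ± 3.93 in white matter and 30% ± 6.21 in choroid plexus and ventricle wall. The shares in white matter and in choroid plexus and ventricle wall, where few or no interneurons are known, are given for comparison. White matter spots were not free of neuronal transcripts, with Snap25 at 384 to 764 CPM. Calb2 had a UMI in 8.98% ± 1.24 of isocortex spots at equal depth (24.6% with all UMIs), against 15.6% ± 5.26 in white matter and 20.4% ± 14.2 in choroid plexus and ventricle wall. The isocortex share of Calb2 was therefore below both comparison shares, which do not show whether its isocortex counts are expression or background. Reln had a UMI in 20.9% ± 2.29 of isocortex spots at equal depth (49.4% with all UMIs), against 9.56% ± 3.6 in white matter and 13.9% ± 4.90 in choroid plexus and ventricle wall. Gad2 had a UMI in 51.4% ± 1.87 of isocortex spots at equal depth (84.8% with all UMIs), against 41.0% ± 7.05 in white matter and 21.9% ± 6.03 in choroid plexus and ventricle wall. The Gad1 share was 82.9% ± 2.04 of isocortex spots at equal depth (96.2% with all UMIs), against 51.7% ± 8.61 in white matter and 32.0% ± 9.30 in choroid plexus and ventricle wall, and that of Calb1 48.9% ± 2.79 of isocortex spots at equal depth (73.1% with all UMIs), against 15.9% ± 3.70 in white matter and 40.1% ± 9.79 in choroid plexus and ventricle wall. Of the 10 members, Calb2 was the only one with a lower mean share in isocortex than in white matter. Cck had a UMI in 99.8% of isocortex spots, so its presence tells spots apart poorly. Thinning left out 689 of 1732 white matter spots, which were shallower. By age the thinned share of Calb1 averaged 51.5% in young, 49.0% in middle and 46.3% in old isocortex, and that of Sst 79.5%, 79.0% and 76.7%.

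The variance of UMIs per spot divided by their mean is 1 where counting noise alone acts, and was largest for Sst and Npy. It averaged 13.7 (9.52 to 21.8) over the 6 sections for Sst, 8.03 (6.25 to 10.0) for Npy, 4.72 (4.01 to 5.82) for Pvalb and 4.05 (3.64 to 4.43) for Vip. Gad1 had 2.83 (2.54 to 3.17), Cck 2.47 (2.31 to 2.70), Calb1 2.09 (1.91 to 2.33), Gad2 1.43 (1.33 to 1.65), Calb2 1.38 (1.21 to 1.62) and Reln 1.26 (1.2 to 1.29). For comparison, Slc17a7, the vesicular glutamate transporter of cortical excitatory neurons, had 1.52 (1.32 to 1.74), and Snap25 had 3.27 (2.78 to 3.62). The single richest spot held 152 Sst UMIs of 10000. Layer differences are part of this spread. The ratio also grows with the mean count, so it does not rank genes of unlike level by how unevenly they spread. The share of UMIs in the richest 5% of spots gave another order, and it rises where counts are few. It averaged 65.1% for Calb2, 49.3% for Vip, 40.5% for Reln, 34.9% for Sst, 34.3% for Npy and 25.6% for Calb1. For Pvalb it was 24.7%, for Gad2 23.4%, for Gad1 19.8% and for Cck 10.2%.

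**Figure D5:**
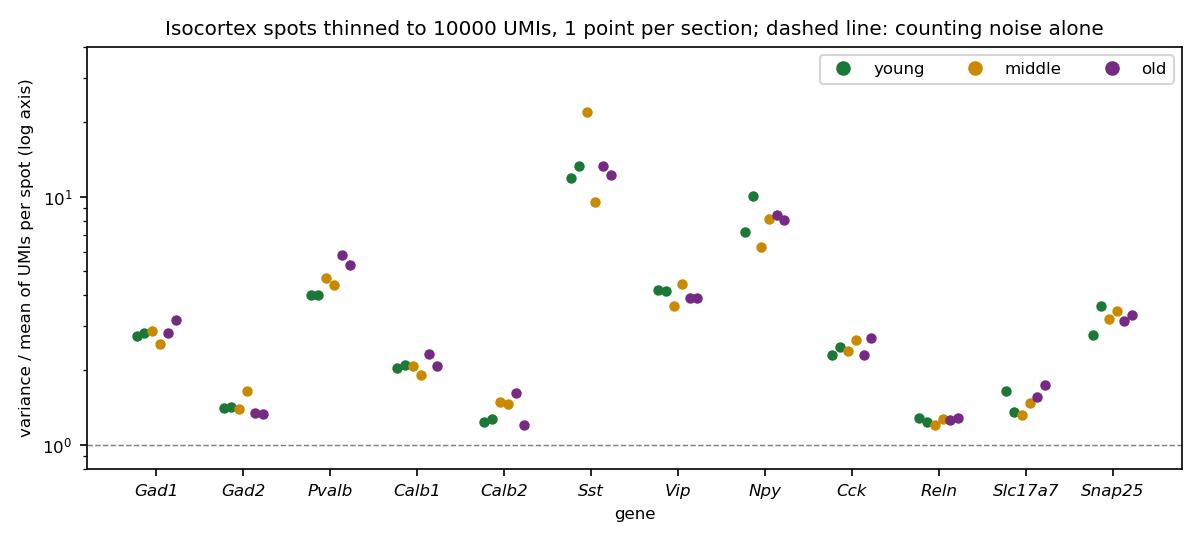
Variance divided by mean of UMIs per isocortex spot (log axis) for each gene after thinning to 10000 UMIs, with 1 point per section coloured by age, and the dashed line at 1 for counting noise alone. Sst and Npy lie highest in the 6 sections, and the members with few UMIs, Calb2 and Reln, lie near the line.

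Whether members were found in the same isocortex spots was described by odds ratios within layer clusters of a section, at equal depth, for 36 pairs of the 9 members other than Cck. The odds ratio was above 1 in all 6 sections for 17 of the 36 pairs. Spots of a section share a library, and depth within a layer still varies, so no test was made. The largest odds ratio was that of Gad1 with Gad2, 2.17 (range 1.39 to 3.56 over 6 sections). Sst with Reln had 2.10 (range 1.60 to 2.64 over 6 sections), and Vip with Calb2 had 1.77 (range 1.51 to 2.10 over 6 sections). Npy with Gad2 had 1.86 (range 1.56 to 2.09 over 6 sections), Sst with Npy 1.62 (range 1.04 to 2.46 over 6 sections) and Pvalb with Gad1 1.79 (range 1.25 to 2.81 over 6 sections). Pvalb with Reln was the only pair below 1 in 6 of 6 sections, at 0.756 (range 0.62 to 0.848 over 6 sections). Pvalb with Sst had 1.03 (range 0.855 to 1.51 over 6 sections), and Pvalb with Vip 0.932 (range 0.796 to 1.34 over 6 sections), with sections on both sides of 1 in each case. The pair with Calb2 rests on a gene whose isocortex share lay below that of white matter.

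Other genes of these pathways were read from 8 lists. Between old and young edgeR called 0 of 86 list genes in the whole section and 0 of 81 in the isocortex, beside the backgrounds of 0.164% and 0.162%. The whole-section median over all genes was -0.0023 on the log2 scale. GABA packaging, uptake and breakdown genes had a median of -0.02 over 7 genes, with the GABA transporters Slc6a11 at 0.14 and Slc6a13 at 0.12. GABA-A receptor subunits had a median of -0.12 with 10 of 12 below 0, among them Gabra2 at -0.20. Of the GABA-B receptor genes Gabbr2 stood at -0.13 and Gabbr1 at 0.011. Other interneuron subtype genes had a median of 0.12 over 20 genes, with Sncg, a synuclein gene, at 0.77 and Chat, which makes acetylcholine, at 0.34. Lineage transcription factors had a median of -0.02 over 13, with Satb1 at -0.22 and Sp9 at -0.14. Fast-spiking and perineuronal net genes had a median of -0.05 over 14, with the channel gene Kcna1 at -0.32 and the matrix gene Ncan at -0.15.

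Peptide receptor genes had a median of 0.0068 over 12, with Sstr1, a somatostatin receptor, at -0.80 and Cckar, a cholecystokinin receptor, at 0.55. The reelin pathway had a median of -0.10 and 6 of 6 genes below 0, with the receptor gene Vldlr at -0.17 and the kinase gene Fyn at -0.14. In single regions, Sncg rose in old relative to young in the subcortical GABAergic region, with a log2 difference of 0.97 (SE 0.16, edgeR adjusted p = 0.00490) (background 0.217%). The microglial marker C1qa was called there too, with a log2 difference of 0.77 (SE 0.13, edgeR adjusted p = 0.0101). With finer clusters Sncg and Chat were among the leading genes of a subcortical GABAergic cluster led by Slc5a7 (89 spots). The part of C1qa and of the cluster makeup of the region in the Sncg result was not tested. In white matter the endocannabinoid receptor gene Cnr1 rose in old relative to young, with a log2 difference of 1.05 (SE 0.16, edgeR adjusted p = 0.000194), and Cxcl14, a chemokine gene, had a log2 difference of 0.59 (SE 0.13, edgeR adjusted p = 0.00901) (background 2.14%). Tnr, a perineuronal net gene that oligodendrocytes also make, fell there, with a log2 difference of -0.70 (SE 0.14, edgeR adjusted p = 0.00377), and Fyn had a log2 difference of -0.56 (SE 0.12, edgeR adjusted p = 0.00680). Markers of other cell types were read beside the members in the whole section, and 0 of 38 were called. Striatal projection neuron markers had the lowest median, -0.40, with 6 of 6 below 0, and microglia markers the highest, 0.22, with 6 of 6 above 0. Glutamatergic markers had a median of -0.073, astrocyte markers -0.017, oligodendrocyte markers 0.031 and vascular and meningeal markers -0.11. Their part in the whole-section values of the members was not tested.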

How the data were processed

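Visium libraries of 6 coronal sections were analysed. Counts are UMIs of each gene in each spot, not normalized, from the deposited Space Ranger matrices; per the file headers the version was 1.3.1, whereas 3.1 and the build mm10 stand in the submitters' processing notes. The remaining deposited files hold other content, namely spot barcodes, gene identifiers and symbols. Members and gene lists were chosen with earlier results of these data known.

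Counts were processed with Python 3.11.15 (scanpy 1.11.5, leidenalg 0.10.2) and R 4.3.3. Spots were clustered (2000 variable genes without the members and interneuron lists, 30 components, 20 neighbours, Leiden resolution 0.8). A region's name was given to clusters with at least 3 of its markers among the 50 leading genes, 1 among the first 10 and 2 times the markers of the next region, or both names where both qualified; this rule was set after the clusters had been seen. UMIs summed per section and region were tested with edgeR 4.0.16 (quasi-likelihood, TMM, filterByExpr, two-sided, Benjamini-Hochberg adjusted p under 0.05 over all genes), with DESeq2 1.42.0 and further settings as alternatives. Regions under 20 spots in a section (habenula, hippocampal CA1) were not tested. Levels in CPM carry no TMM factor. Tested on simulated whole sections (17673 genes, 200 changed by 1 on the log2 scale), edgeR recovered 78.5% and 12.3% of its calls were false. Smaller changes, single regions and a slide effect were not simulated, so the share recovered does not apply to them. Gene positions come from GENCODE M21 (GRCm38).

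Named were the 10 members in the whole section and isocortex, members past the threshold elsewhere, each member's 2 highest and 1 lowest regions, the 3 genes of most similar level over regions (mean of at least 10 CPM in 1 region or more), and from each list the called genes (up to 4), otherwise the 2 of largest change in the whole section. Some genes that this rule names are not reported here.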

Additional observations from a re-analysis of the deposited data

Results flagged for a closer look

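Between single regions, 3 members had both old sections above both young ones in 1 region and below them in 3 others, among regions with at least 600 UMIs of the gene; the difference between the regions was not tested, and levels here carry TMM factors. Over all members 26 of 126 combinations were separated in this way (20.6%), against 36.5% over all genes. Below, of the 3 lower regions the one of largest difference is given for each gene. Sst had a log2 ratio of old to young of 1.63 (means of 51.6 and 159.9 CPM in young and old) in choroid plexus and ependymal ventricle wall and -0.58 (means of 589 and 395 CPM in young and old) in subcortical GABAergic. Neither passed in the edgeR test without further terms. The first was called only with slide as a term, at 2.18 (edgeR adjusted p = 0.0413). The second was called at -0.56 (edgeR adjusted p = 0.000288) with the replicate block and -0.58 (edgeR adjusted p = 3.74e-06) without the filter on low counts. It was -0.80 without young 2, where young 1 alone stood for young. It was not called with DESeq2, with thinned sums, with slide as a term or with coarser or finer clusters. The subcortical GABAergic region joined clusters of differing Sst level, whose part was not tested. Npy had a log2 ratio of old to young of 0.80 (means of 26.3 and 45.8 CPM in young and old) in thalamic relay nuclei and -0.53 (means of 409 and 283 CPM in young and old) in layer 2/3. Neither passed without further terms. In thalamic relay nuclei the difference was 1.42 without young 2, where young 1 alone stood for young. In layer 2/3 it was -0.74 (edgeR adjusted p = 0.00158) with slide as a term and -0.89 without old 2, where old 1 alone stood for old. Cck had a log2 ratio of old to young of 0.21 (means of 133 and 155 CPM in young and old) in striatum and -0.36 (means of 905 and 705 CPM in young and old) in midline thalamus and thalamic relay nuclei. Neither Cck difference passed in the edgeR test without further terms or in the alternative settings that held these regions.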

How the results depend on the processing

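Counts of members called in single regions moved with the settings. Between old and young the count of 2 became 1 with DESeq2, 7 without the filter on low counts, 1 with thinned sums, 0 at resolution 0.5, 1 at resolution 1.2, 3 with slide as a term and 0 to 17 with 1 section left out (17 without young 2, 10 without young 1, 4 without old 2, 1 without middle 1, 0 without old 1). The 3 with slide as a term were Sst in choroid plexus and ventricle wall, Npy in layer 2/3 and Npy in layer 5 at a log2 difference of -0.43 (edgeR adjusted p = 0.0231), and both calls made without it were lost. Between middle and young the count of 2 became 1 with DESeq2, 12 without the filter, 1 with thinned sums, 4 with slide as a term and 1 to 16 with 1 section left out (16 without young 1, 13 without young 2, 1 without middle 2, 4 without each of the other 3). Between old and middle the count of 1 became 0 with DESeq2, 8 without the filter, 2 at resolution 1.2, 3 with slide as a term and 0 to 3 with 1 section left out (0 without middle 2). In the isocortex the count of 0 became 1 without the filter (Calb1) and 1 with slide as a term (Npy) between old and young, and 1 without the filter between middle and young. For the trend, the isocortex count became 1 without the filter, 1 at resolution 0.5, 1 with slide as a term and 0 to 1 with 1 section left out (1 without old 1), and the whole-section count 0 to 1 (1 without young 2). A fit with 1 section left out had a single section at that age, so its counts rest on that section. The cause of the moves in counts was not tested. Of differences between old and young, none past the threshold, these changed sign: with equal numbers of spots per cluster, whole-section Pvalb (0.10), Vip (0.059) and Gad1 (0.0009); at resolution 0.5, isocortex Pvalb (-0.047) and Gad1 (0.0076); and with slide as a term, isocortex Pvalb (-0.082). With 1 section left out, whole-section Pvalb ran from -0.32 to 0.36, Gad1 from -0.27 to 0.15 and Gad2 from -0.37 to 0.19, and isocortex Pvalb from -0.21 to 0.22, Gad1 from -0.14 to 0.081, Gad2 from -0.094 to 0.0078 and Vip from -0.0056 to 0.25. These differences kept their sign with 1 section left out but moved by over 1.5 times: whole-section Npy ran from -0.41 to -0.11, Cck from -0.22 to -0.03, Reln from -0.33 to -0.026, Calb1 from -0.21 to -0.029, Sst from -0.27 to -0.079 and Vip from -0.08 to -0.01, and isocortex Npy from -0.50 to -0.045, Cck from -0.16 to -0.051, Reln from -0.26 to -0.056, Calb1 from -0.34 to -0.16, Sst from -0.20 to -0.028 and Calb2 from 0.10 to 0.25. Whole-section Calb2 kept its sign in every setting. It ran from 0.32 to 0.54 with 1 section left out but was 0.21 at its lowest over the other settings. In the subcortical GABAergic region the mean CPM at resolution 0.5 and 1.2 were 4486 and 3452 for Pvalb, 3109 and 2452 for Gad1 and 882 and 733 for Gad2, and Reln in meninges was 55.8 CPM at 1.2. Thinned to 5000 UMIs, the shares of isocortex spots with a UMI were 58.8% for Pvalb, 61.5% for Sst, 18.5% for Vip, 54.6% for Npy, 98.1% for Cck, 32.9% for Calb1, 5.27% for Calb2, 65.4% for Gad1, 31.8% for Gad2 and 11.6% for Reln, as fewer UMIs were drawn.

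Deviations from the age means of same-numbered sections had correlations over genes of 0.00247 (young and middle), 0.203 (young and old) and 0.373 (middle and old). In middle and old the replicate number is also the slide, so these sections are paired by slide. The main test of old against middle did not use that pairing, and counts with slide as a term are given above. With the replicate block the single-region counts were 5 (old against young), 5 (middle against young) and 3 (old against middle), and whole-section Pvalb had a log2 difference of 0.011. The interaction of isocortex with all other spots was not run with a replicate or slide term.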
